A study of Mus musculus with 6 samples.

Results

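The genes described here are the 5 genes of the interleukin-17 (IL-17) receptor family, Il17ra, Il17rb, Il17rc, Il17rd and Il17re, together with Chdh, which lies head to head with Il17rb. They are 6 of the 43629 genes in the count table, and each of the 6 was among the 16829 genes that passed the filter on low counts. The genes were chosen by name, and by the levels of Il17rb and Chdh measured in these same libraries, so their values are a description and carry no test. RNA was sequenced from keratinocytes of 3 control and 3 Dnmt1Δ/Δep mice. In Dnmt1Δ/Δep mice a K5-Cre transgene, driven by the keratin 5 promoter and therefore active in basal keratinocytes of epidermis and hair follicle, recombines both floxed alleles of Dnmt1, the methyltransferase that copies DNA methylation after replication. The study's methods describe a mixed C57BL/6J and 129SV background, and the other group is labelled control and titled wt, with no allele named (elsewhere in the study, controls carried Dnmt1 f/f or Dnmt1 f/+). All mice were female, the epidermis was taken at postnatal day 3, and the cells of both groups grew for 5 days (72 h in a legend of the study) on coated dishes in medium with 8% chelated serum and 0.05 mM CaCl2.

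IL-17 receptors are membrane proteins that work in pairs. IL17RA is the shared chain: with IL17RC it binds IL-17A and IL-17F, with IL17RB it binds IL-25 (IL-17E), and with IL17RE it binds IL-17C, a cytokine made by epithelia. In keratinocytes the IL17RA and IL17RC pair, acting through the adaptor ACT1 (Traf3ip2), raises neutrophil-attracting chemokines and antimicrobial proteins, and IL-25 belongs to the epithelial cytokines of type 2 inflammation. IL17RD, also called SEF, restrains signals of fibroblast growth factor (FGF) receptors, and IL17RB binds IL-17B as well. CHDH, choline dehydrogenase, is a mitochondrial enzyme that oxidizes choline on the way to betaine, a methyl donor for the remaking of methionine.

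Il17rb (ENSMUSG00000015966) lies on the minus strand of chromosome 14, from 30008896 down to 29996135, and Chdh (ENSMUSG00000015970) on the plus strand from 30009023 to 30040527 (GENCODE M21 on GRCm38). The annotated starts are 127 bases apart, so that the genes are read away from each other out of 1 short stretch. The bases between the starts as RefSeq places them (30008896 and 30009000, GRCm38.p6) are shown here because both genes that were low in Dnmt1Δ/Δep keratinocytes begin at its edges. The stretch runs from 5′ to 3′ on the plus strand at chr14:30008897-30008999, with its CpG dinucleotides, the substrate of DNMT1, in capitals.
Il17rb-Chdh: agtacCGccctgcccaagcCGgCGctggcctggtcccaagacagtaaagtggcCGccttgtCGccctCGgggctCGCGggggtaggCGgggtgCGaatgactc
These 103 bases held 10 CpG dinucleotides and 69.9% G and C. RefSeq windows of 300 bases around the start were at hand for 5 of the 6 genes. The Il17rb window held 32 CpG dinucleotides, more than 90.5% of the 32851 mouse windows, whose median was 7. The window at the upstream start of Chdh shares 203 bases with it and held 26, whereas each of 2 further Chdh windows inside the gene held 4. The other receptor genes began in windows with fewer CpG dinucleotides: 19 for Il17rd, 7 for Il17rc and 3 for Il17re. The Il17rb window and the upstream Chdh window were searched on both strands for the presence of 3 motifs. GGGCGG (an Sp1 box, present in 35.7% of all windows) and TGAGTCA (an AP-1 site, 5.20%) were present in both, and TATAAA (13.6%) was in neither. These 3 motifs do not overlap one another, were chosen after the sequence was seen, and are matches of letters only. DNA methylation was not measured in these samples.

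The other receptor genes lie elsewhere. Il17rc (ENSMUSG00000030281, chromosome 6, 113471427 to 113483140) starts 669 bases after the end of Il17re (ENSMUSG00000043088, 113458484 to 113470758) on the same strand. Il17ra (ENSMUSG00000002897, 120463247 to 120487559) lies on the same chromosome, its start 6.99 Mb from that of Il17rc. Il17rd (ENSMUSG00000040717, chromosome 14, 27038941 to 27107286) shares a chromosome with Il17rb and starts 2.97 Mb away from it.

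Counts on genes ranged from 53433121 to 115526598 per library, and levels are given as CPM, the count scaled to a common library size after TMM normalization. Dnmt1 had 394, 379 and 324 CPM in control and 49.7, 54.3 and 50.7 CPM in Dnmt1Δ/Δep libraries, so that the targeted gene fell by 2.83 on the log2 scale (SE 0.11, Benjamini-Hochberg adjusted p = 8.12e-05 by the quasi-likelihood test of edgeR). Markers of basal keratinocytes (Krt5, Krt14, Itga6, Itgb4, Col17a1, Trp63) were the most abundant marker list in every library and summed to between 28820 and 32700 CPM in control and between 21800 and 22220 CPM in Dnmt1Δ/Δep libraries, with 0 of 6 called by edgeR, whose unadjusted p with the same fold called 0 too. Without the fold limit, 3 of these markers were lower at the adjusted p of edgeR (beside 1.66% of all genes tested), with no overlap between the groups: Krt14 (log2 fold change -0.61, adjusted p = 0.028), Col17a1 (-0.55, adjusted p = 0.035) and Krt5 (-0.50, adjusted p = 0.038). The adjusted p of all 3 was above 0.05, at up to 0.14, without Dnmt1Δ/Δep replicate 1 or control replicate 2, that of at least 1 was above it without Dnmt1Δ/Δep replicate 2 or 3 or control replicate 3, and all stayed under it without control replicate 1. The summed level of differentiated keratinocyte markers (Krt1, Krt10, Ivl, Lor, Flg, Dsg1a) set control replicate 1 apart from its group. The sum was 103 CPM there, against 481 and 735 CPM in control replicates 2 and 3 and 232, 195 and 153 CPM in Dnmt1Δ/Δep replicates 1, 2 and 3. Krt1 alone had 53.2, 356 and 530 CPM in control replicates 1, 2 and 3. Ivl had 10.6, 10.8 and 25.7 CPM in them, nearly equal in replicates 1 and 2.

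Il17rb, the receptor chain for IL-25, was scarce in control keratinocytes and scarcer in Dnmt1Δ/Δep keratinocytes. It had 0.328, 2.26 and 2.09 CPM in control replicates 1, 2 and 3 (31, 220 and 112 counts) and 0.134, 0.0578 and 0.212 CPM in the Dnmt1Δ/Δep replicates (8, 5 and 25 counts). All 3 Dnmt1Δ/Δep libraries lay under all 3 control libraries, but control replicate 1 lay far closer to the Dnmt1Δ/Δep libraries than to the other control libraries. The control mean was 1.56 ± 1.07 CPM and the Dnmt1Δ/Δep mean, at 0.135 ± 0.0770 CPM (SD, n = 3), was 11.6-fold lower. The fitted log2 fold change was -3.48 (SE 0.80). The exact Poisson 95% interval of the lowest control library, 0.223 to 0.465 CPM, overlapped that of the highest Dnmt1Δ/Δep library, 0.137 to 0.313 CPM. At this depth these 2 libraries cannot be told apart by counting. Such intervals cover counting error only and leave out the spread between mice and cultures, and the reads carry no molecular identifiers. In the fit without control replicate 1 the log2 fold change of Il17rb was -3.96 (SE 0.47).

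Chdh, which encodes choline dehydrogenase, showed the same picture at a level that counting error touches little. It had 18.8, 53.3 and 44.0 CPM in the control replicates (1776, 5198 and 2362 counts) and 3.67, 5.05 and 6.61 CPM in the Dnmt1Δ/Δep replicates (219, 437 and 780 counts). The lowest control library was 2.84-fold above the highest Dnmt1Δ/Δep library, so the groups did not overlap, and control replicate 1 was again the lowest of its group. The control mean was 38.7 ± 17.9 CPM and the Dnmt1Δ/Δep mean, at 5.11 ± 1.47 CPM (SD, n = 3), was 7.57-fold lower. Its fitted log2 fold change was -2.91 (SE 0.41), and -3.24 (SE 0.24) without control replicate 1. In bulk RNA a smaller share of cells that express a gene and less RNA per cell cannot be told apart.

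Libraries with the same replicate number shared a lane of the flow cell, and the difference between the genotypes varied between these pairs. For Il17rb the log2 ratio of Dnmt1Δ/Δep over control was -1.29 in pair 1, -5.29 in pair 2 and -3.30 in pair 3. For Chdh it was -2.35, -3.40 and -2.73 in pairs 1, 2 and 3. Both genes were thus lower in each pair, least in the pair with control replicate 1 and most in pair 2. The number of Chdh reads per Il17rb read was 57.3, 23.6 and 21.1 in the control replicates and 27.4, 87.4 and 31.2 in the Dnmt1Δ/Δep replicates. This ratio overlapped between the groups, and its highest value rests on 5 Il17rb reads.

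**Figure D1:**
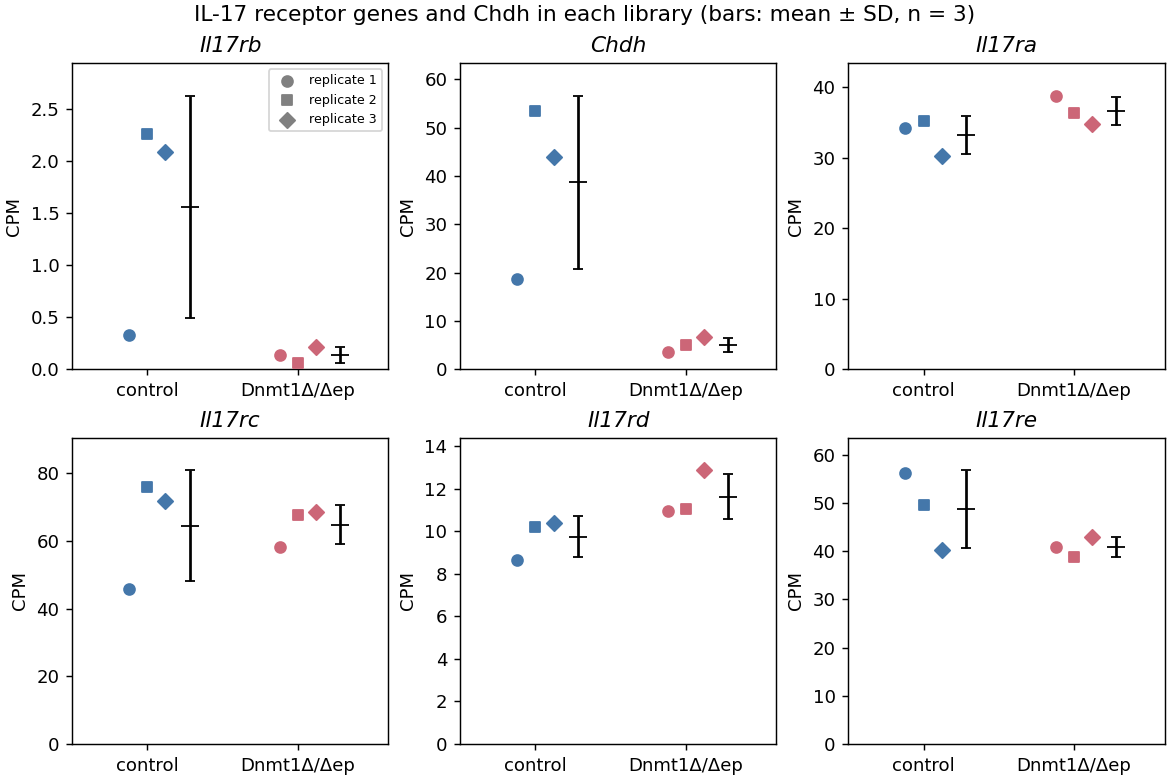
Level in CPM (y axis, linear and starting at 0) of each of the 6 genes in the 3 control and 3 Dnmt1Δ/Δep libraries, with symbols for the replicate number and bars for the mean ± SD. Il17rb and Chdh sit between 0.0578 and 0.212 CPM and between 3.67 and 6.61 CPM in Dnmt1Δ/Δep libraries, under every control library, while the panels of Il17ra, Il17rc and Il17re overlap between the groups.

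The shared chain Il17ra was at 34.2, 35.3 and 30.3 CPM in the control replicates and at 38.8, 36.4 and 34.9 CPM in the Dnmt1Δ/Δep replicates. The groups overlapped, and the log2 fold change was 0.14 (SE 0.11). Il17rc, the partner chain for IL-17A and IL-17F, had 45.7, 75.9 and 71.9 CPM in control and 58.2, 67.8 and 68.7 CPM in Dnmt1Δ/Δep libraries. Here the group means were nearly equal, at 64.5 ± 16.4 and 64.9 ± 5.79 CPM (SD, n = 3), and control replicate 1 was the lowest library of all. The log2 fold change of Il17rc, 0.01 (SE 0.19), was so close to 0 that it took the other sign, -0.02, in DESeq2.

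Il17re, the chain for epithelial IL-17C, had 56.3, 49.6 and 40.2 CPM in control and 40.9, 38.8 and 43.0 CPM in Dnmt1Δ/Δep libraries. Its groups overlapped, since control replicate 3 lay among the Dnmt1Δ/Δep libraries, and its log2 fold change was -0.25 (SE 0.14). Il17rd, the member that restrains FGF signals, had 8.64, 10.2 and 10.4 CPM in control and 11.0, 11.1 and 12.9 CPM in Dnmt1Δ/Δep libraries. Every Dnmt1Δ/Δep library was above every control library, by a small margin, and the log2 fold change was 0.26 (SE 0.14). The same complete separation upward was seen in 18.2% of the genes tested, and the complete separation downward of Il17rb and Chdh in 11.7%.

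A gene counts as called where the adjusted p does not exceed 0.05 and the log2 fold change reaches 1 in either direction. By this rule 2 of the 6 genes, Il17rb and Chdh, were among the 66 genes called lower (0.392% of the genes tested), and 0 were among the 1014 called higher (6.03%) by edgeR, at an unadjusted p with the same fold and by DESeq2 alike. Since the list was drawn up with this contrast known, nothing is read from that count. It depended on the libraries, and 1 of the genes, Chdh, was called without control replicate 2, control replicate 3 or any of Dnmt1Δ/Δep replicates 1, 2 and 3, which describes these libraries and is no further support. The log2 fold change of Il17rb ranged from -4.05 to -3.11 and that of Chdh from -3.24 to -2.61 over the 6 fits with 1 library left out.

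**Figure D2:**
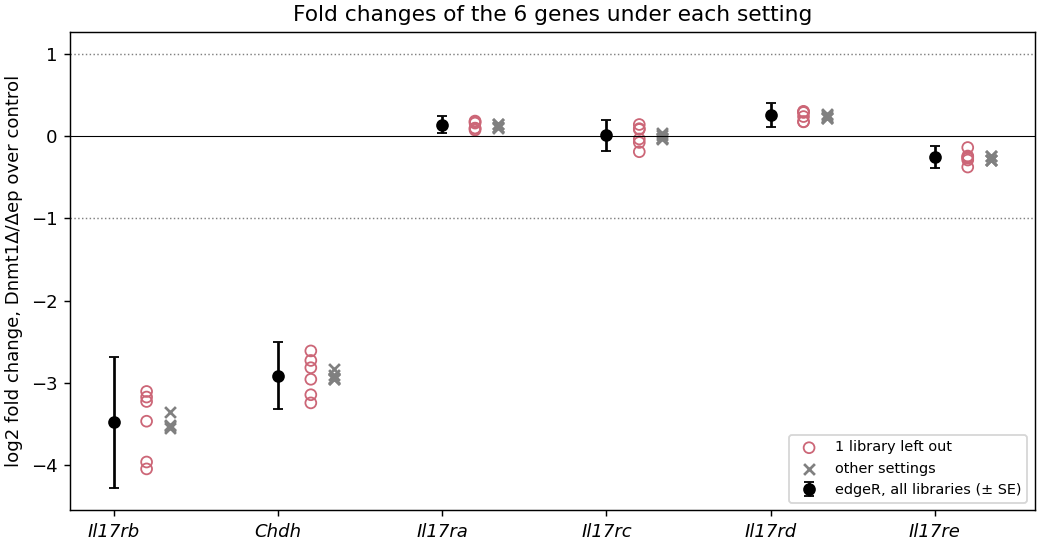
Log2 fold change of Dnmt1Δ/Δep over control (y axis) for each of the 6 genes (x axis), as the edgeR value with its SE (black), with 1 library left out (open circles) and under the other settings (crosses), with dotted lines at -1 and 1. Every value of Il17rb and Chdh lies under -2.6, and every value of the other receptor genes lies between the dotted lines.

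To compare levels between genes, CPM was divided by the exon length in kb (RPKM). Il17rc was the most abundant receptor transcript in control keratinocytes at 24.2 ± 6.13 RPKM, and its 3 libraries did not overlap those of the next gene, Il17re, at 8.30 ± 1.38 RPKM (SD, n = 3). Chdh at 6.22 ± 2.88 RPKM and Il17ra at 3.84 ± 0.305 RPKM followed, and the control libraries of Chdh overlapped those of both neighbours in the order. Il17rd at 0.887 ± 0.0878 RPKM and Il17rb at 0.420 ± 0.288 RPKM came last, with no overlap between them. In Dnmt1Δ/Δep keratinocytes the order of the top was kept, with Il17rc at 24.3 ± 2.17, Il17re at 6.97 ± 0.356 and Il17ra at 4.23 ± 0.230 RPKM, and no overlap among these 3. Chdh moved down to 0.822 ± 0.236 RPKM, where its libraries overlapped those of Il17rd at 1.06 ± 0.0970 RPKM. Il17rb remained last at 0.0363 ± 0.0208 RPKM. The Il17ra and Il17rc transcripts were thus present at 3.49 RPKM or more in every library, and the chain for IL-25 at 0.609 RPKM or less.

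The low level in Dnmt1Δ/Δep keratinocytes was not seen in the genes around the Il17rb and Chdh pair. Within 500 kb of the Il17rb start 4 other genes were tested, and 0 were called by edgeR, at an unadjusted p with the same fold or by DESeq2. Of these, Cacna1d, whose exons overlap those of Chdh, was near the floor and says little. It had 7, 21 and 12 counts in control and 6, 16 and 23 counts in Dnmt1Δ/Δep libraries (log2 fold change -0.04, SE 0.54). Actr8, a subunit of a chromatin remodelling complex and the nearest tested gene on the Il17rb side, has its start at -30.6 kb relative to that of Il17rb. It had 33.4, 31.2 and 29.5 CPM in control and 29.8, 32.4 and 29.3 CPM in Dnmt1Δ/Δep libraries, a log2 fold change of -0.04 (SE 0.10, adjusted p = 0.88 from edgeR). Dcp1a, an mRNA decapping factor and the nearest tested start beyond Chdh, lies 470.6 kb away. Its levels of 52.9, 52.4 and 50.3 CPM in control and 52.9, 56.2 and 50.5 CPM in Dnmt1Δ/Δep libraries gave a log2 fold change of 0.04 (SE 0.09, adjusted p = 0.88 from edgeR). Exons of Actr8 overlap 3.8% of the Il17rb exon bases and exons of Cacna1d 9.47% of those of Chdh, and whether reads were counted by strand is not given in the sources used here.

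**Figure D3:**
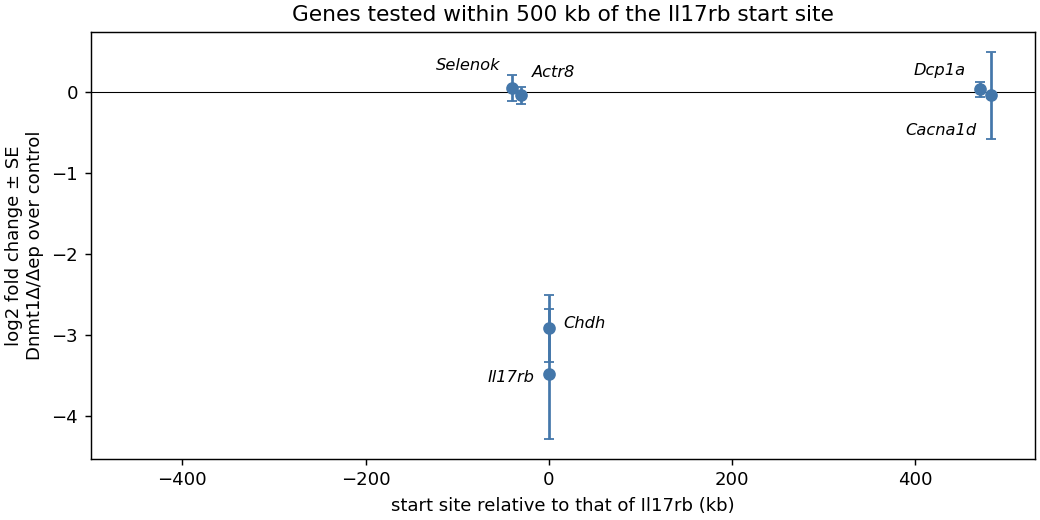
Log2 fold change of Dnmt1Δ/Δep over control with its SE (y axis) for every gene tested with a start within 500 kb of the Il17rb start (x axis, distance in kb). Il17rb at -3.48 and Chdh at -2.91 stand at distance 0, and the 4 other genes lie between -0.04 and 0.05.

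Over the 13307 tested genes whose counts averaged 50 or more, likeness to Il17rb was measured as the root mean square difference of log2 (CPM + 0.05) over the 6 libraries, each gene centred on its own mean. The gene most like Il17rb was Krt15, a keratin of hair follicle stem cells and basal cells, with a difference of 0.51. Krt15 had 1.54, 8.74 and 11.6 CPM in the control replicates and 0.637, 0.613 and 0.483 CPM in the Dnmt1Δ/Δep replicates. Chdh came next at 0.54, followed by Sostdc1, a secreted BMP and Wnt antagonist, at 0.55, the matrix protein gene Tgfbi at 0.61, and Fxyd6, a regulator of the sodium pump, at 0.65. For Chdh the closest gene was Fxyd6 at 0.36, with 4.63, 11.7 and 9.36 CPM in control and 1.56, 1.65 and 2.01 CPM in Dnmt1Δ/Δep libraries. Smtnl2 (0.40), Sostdc1 (0.47), Ankrd55 (0.50) and the Wnt ligand gene Wnt16 (0.51) came after it, and Il17rb was in place 7 for Chdh. All of these genes had their highest levels in control replicates 2 and 3 and, among the control libraries, their lowest in replicate 1. Since they were picked for likeness over these same 6 libraries, this shared shape follows from the choice. In Tgfbi the groups overlapped, with 10.4 CPM in control replicate 1 and 10.6 CPM in Dnmt1Δ/Δep replicate 3.

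**Figure D4:**
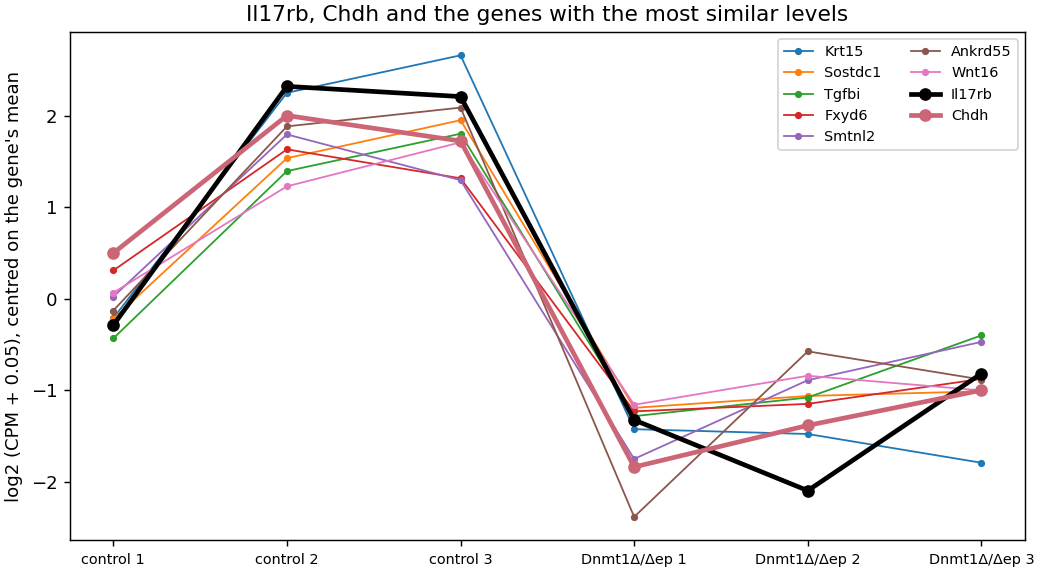
Log2 (CPM + 0.05) of Il17rb and Chdh (thick lines) and of the genes most like either (thin lines) in the 6 libraries (x axis), each centred on the gene's own mean, with lines that only link the points of 1 gene. In every gene shown, control replicate 1 stands under control replicates 2 and 3, and in all but Tgfbi it stands above the 3 Dnmt1Δ/Δep libraries. The genes were picked for this likeness over the same libraries.

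The marker lists were looked at beside these levels. Of the 8 hair follicle markers (Krt15, Lhx2, Sox9, Lgr5, Cd34, Nfatc1, Tcf7l1, Krt79), 1 was called lower (beside 0.392% of all genes tested) and 0 higher (beside 6.03%; 1 at an unadjusted p with the same fold). The gene called was Krt15, with a log2 fold change of -3.66 (SE 0.69, adjusted p = 0.019, by edgeR), and its adjusted p rose above the threshold, to at most 0.081, without control replicate 2 or any of Dnmt1Δ/Δep replicates 1, 2 and 3. The summed level of the list was 441 to 497 CPM in control and 363 to 443 CPM in Dnmt1Δ/Δep libraries, which overlap, and most of it was Sox9. The median log2 fold change of the list was -0.57, and the groups did not overlap downward in 4 of the 8 markers, Krt15, Lhx2, Sox9 and Tcf7l1 (beside 11.7% of all genes tested), and upward in 1 (beside 18.2%). The differentiated keratinocyte markers, whose sum was low in control replicate 1 as were Il17rb and Chdh, had 0 of 5 tested genes called by edgeR. At an unadjusted p with the same fold 2 were lower and 2 higher, and the median log2 fold change was -0.93. The log2 fold changes were below 0 for Krt1 (-2.30), Krt10 (-1.58) and Dsg1a (-0.93) and above 0 for Lor (1.705) and Ivl (1.614). What these differences in the cells contribute to the levels of Il17rb and Chdh was not tested.

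The ligand genes of the receptors were at low levels. Of these 6 genes, Il17a was at 0 counts in all libraries, which allows up to 3 counts or between 0.0254 and 0.0558 CPM, and Il25, which encodes the ligand of IL17RB, had at most 0.0508 CPM in any library. Il17d, the most abundant ligand gene, had 1.02, 0.903 and 0.558 CPM in control and 0.688, 0.590 and 0.508 CPM in Dnmt1Δ/Δep libraries (log2 fold change -0.49, SE 0.32, adjusted p = 0.43 from edgeR). Il17c, named after its values were seen, had 0.0106, 0.0103 and 0.0558 CPM in control and 0.151, 0.174 and 0.110 CPM in Dnmt1Δ/Δep libraries, so the groups did not overlap, and no fold is given because the control libraries held at most 3 counts. Its adjusted p was 0.058 by edgeR and between 0.040 and 0.23 with 1 library left out, under the threshold only without control replicate 3. Thus 0 of the 3 tested ligand genes were called by edgeR and by DESeq2, 1 at an unadjusted p with the same fold, and 1 by edgeR without control replicate 3. T cells, the main source of IL-17A and IL-17F, left little RNA: of their 6 markers 5 were in the table, Cd3g was at 0 in all libraries, and the list summed to 1.25 to 2.22 CPM in control and 2.41 to 3.83 CPM in Dnmt1Δ/Δep libraries, nearly all of it Thy1.

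Genes that carry the signal from the IL-17 receptors centred near the level of all genes. The list of 25 adaptors, kinases, transcription factors and feedback genes had all 25 tested, with a median log2 fold change of 0.03 beside -0.0009 for all genes tested. It held 2 genes called higher (beside 6.03% of all genes tested) and 0 lower (0 at an unadjusted p with the same fold). Tnfaip3, which encodes the ubiquitin-editing enzyme A20, had 22.0, 15.6 and 25.3 CPM in control and 50.8, 58.6 and 55.1 CPM in Dnmt1Δ/Δep libraries, a rise by 1.39 on the log2 scale (SE 0.18, adjusted p = 0.0045, edgeR). Zc3h12a, which encodes the RNase regnase, had 6.32, 12.9 and 20.1 CPM in control and 41.8, 76.6 and 57.7 CPM in Dnmt1Δ/Δep libraries (log2 fold change 2.17, SE 0.42, adjusted p = 0.020, edgeR). At the adjusted p without the fold limit 5 genes of the list were higher (beside 7.71% of all genes tested). The further ones, named after their values were seen, were Nfkbia, which encodes an inhibitor of NF-kB (log2 fold change 0.93, SE 0.14, adjusted p = 0.0092, edgeR), Ikbke, which encodes a kinase (0.89, SE 0.16, adjusted p = 0.015), and Nfkbiz, which encodes a nuclear cofactor of NF-kB (0.64, SE 0.09, adjusted p = 0.0063). In these 3 genes every Dnmt1Δ/Δep library lay above every control library, and only the adjusted p of Ikbke went above 0.05 with 1 library left out, to at most 0.059, without control replicate 2 or Dnmt1Δ/Δep replicate 2. Tnfaip3 was called with any 1 library left out, whereas Zc3h12a was not called without control replicate 2, Dnmt1Δ/Δep replicate 2 or Dnmt1Δ/Δep replicate 3, which left 1 gene of the list called. The adaptor Traf3ip2, named for its role after the values were seen, had 30.9, 43.6 and 48.5 CPM in control and 41.1, 50.5 and 45.0 CPM in Dnmt1Δ/Δep libraries (log2 fold change 0.15, SE 0.18, adjusted p = 0.69, edgeR).

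Genes known to be raised by IL-17 in keratinocytes formed another list. Of 29 such genes, 27 were tested, 11 were called higher (beside 6.03% of all genes tested) and 0 lower (0 at an unadjusted p with the same fold), and their median log2 fold change was 1.65 beside -0.0009 for all genes tested. Csf2, which encodes the growth factor GM-CSF, had 0.148, 0.0718 and 0.130 CPM in control and 5.45, 4.39 and 2.45 CPM in Dnmt1Δ/Δep libraries, a log2 fold change of 5.13 (SE 0.44, adjusted p = 0.00096, edgeR). Another gene overlaps 12% of the Csf2 exon bases. Cxcl5, a neutrophil-attracting chemokine, went from 7.22, 0.831 and 1.64 CPM in control to 88.2, 93.5 and 93.5 CPM in Dnmt1Δ/Δep libraries (log2 fold change 4.81, SE 0.76, adjusted p = 0.0096, edgeR). Its relative Cxcl3 had 5.86, 0.472 and 0.949 CPM in control and 47.2, 45.8 and 44.6 CPM in Dnmt1Δ/Δep libraries (log2 fold change 4.22, SE 0.85, adjusted p = 0.024, edgeR). For both chemokines control replicate 1 was the highest control library, unlike for Il17rb and Chdh, where it was the lowest. The acute phase gene Saa3 had 0.336, 0.590 and 0.508 CPM in Dnmt1Δ/Δep libraries and 0, 2 and 3 counts in the control libraries, too few for a fold (adjusted p = 0.014, edgeR). The others called, given to complete the count, were the chemokine genes Cxcl1, Cxcl2 and Ccl2, the growth factor gene Csf3, Il1f6 (IL-36 alpha), S100a8 and S100a9.

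Csf2 and Cxcl5 were called with any 1 library left out, Cxcl3 was not called without control replicate 3 or Dnmt1Δ/Δep replicate 1, 2 or 3, and Saa3 was not called without control replicate 2 or Dnmt1Δ/Δep replicate 2. The number of these genes called was 6 without Dnmt1Δ/Δep replicate 1 and 7 without Dnmt1Δ/Δep replicate 2, and 5 of the 11 were called with any 1 library left out. These genes answer to other inflammatory signals as well as to IL-17. Markers of other cells were looked at beside them. Of 6 Langerhans and myeloid markers (Cd207, Cd74, Lyz2, Itgam, Csf1r, Ptprc) 3 were tested and 2 were called higher (beside 6.03% of all genes tested), Csf1r and Itgam. The list summed to 0.275 to 0.987 CPM in control and 2.50 to 4.395 CPM in Dnmt1Δ/Δep libraries. Csf1r was not called without Dnmt1Δ/Δep replicate 1, control replicate 3 or Dnmt1Δ/Δep replicate 3, Itgam was called only without control replicate 3 among these fits, and other genes overlap 15.1% and 68.7% of their exon bases. The defining Langerhans cell marker Cd207 was at 0 in every control library and at 0.00848 CPM at most in a Dnmt1Δ/Δep library. Ptprc, which encodes CD45, had 0, 0 and 2 counts in control and 12, 1 and 0 counts in Dnmt1Δ/Δep libraries. Lyz2 had 1, 0 and 1 counts in control and 6, 0 and 2 counts in Dnmt1Δ/Δep libraries. The list thus did not move as a whole. Of 5 endothelial markers (Pecam1, Cdh5, Kdr, Tie1, Emcn) 4 were tested and 2 were called higher (beside the same 6.03%), Pecam1 and Cdh5, with sums of 4.39 to 17.1 CPM in control and 14.1 to 22.7 CPM in Dnmt1Δ/Δep libraries. Melanocyte markers (Pmel, Mlana, Dct, Tyr, Tyrp1, Mitf) summed to 221 to 564 CPM in control and 676 to 897 CPM in Dnmt1Δ/Δep libraries, and fibroblast markers (Col1a1, Col1a2, Col3a1, Pdgfra, Dcn, Lum) to 12.2 to 28.0 and 11.96 to 58.8 CPM. In both lists 0 of 6 genes were called by edgeR, and 1 was higher at an unadjusted p with the same fold. With the replicate number as a block, Csf1r was not called (adjusted p = 0.053, edgeR), and Tie1, Tyrp1, Dct and the hair follicle marker Cd34 were called higher. The part of these cells in the levels of the chemokine genes was not tested.

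**Figure D5:**
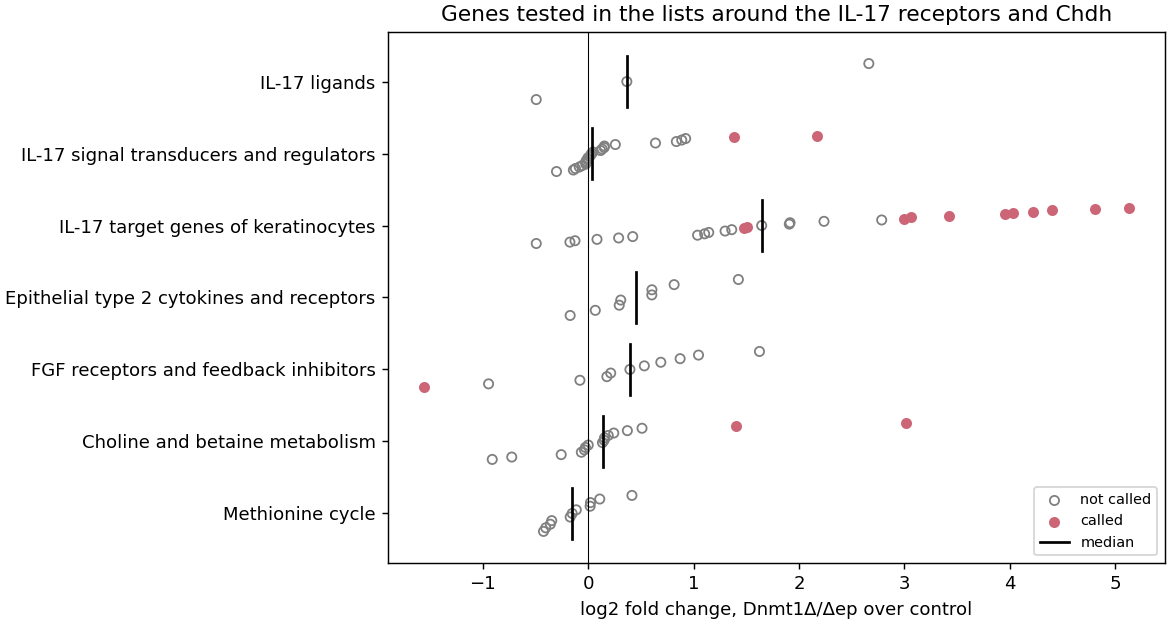
Log2 fold change of Dnmt1Δ/Δep over control (x axis) of every tested gene in 7 gene lists around the receptors and Chdh (y axis, spread vertically for sight only), with called genes filled and the list median as a bar. The IL-17 target genes have a median of 1.65 with 11 genes called higher, and the medians of the other 6 lists lie between -0.15 and 0.46.

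The epithelial cytokines that act beside IL-25 and their receptors were described by a list of 10 genes, of which 8 were tested and 0 were called by edgeR, at an unadjusted p with the same fold or by DESeq2, with a median log2 fold change of 0.46. Il33, an alarmin of epithelial cells and the most abundant of them, had 165, 278 and 458 CPM in control and 419, 588 and 577 CPM in Dnmt1Δ/Δep libraries (log2 fold change 0.82, SE 0.34, adjusted p = 0.21, edgeR). Its groups overlapped through control replicate 3, and without that library Il33 was called, the 1 gene of the list that was.

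Il17rd acts beside the FGF receptors and their feedback inhibitors, a list of 12 genes of which 11 were tested, 1 was called lower (beside 0.392% of all genes tested) and 0 higher (2 at an unadjusted p with the same fold), with a median log2 fold change of 0.40. The gene called was Fgfr3, an FGF receptor, with 32.7, 95.5 and 79.6 CPM in control and 17.8, 22.3 and 30.3 CPM in Dnmt1Δ/Δep libraries. Its log2 fold change was -1.56 (SE 0.39, adjusted p = 0.049, edgeR), control replicate 1 was again the lowest control library, and another gene overlaps 13.9% of its exon bases. Fgfr2, another FGF receptor, named after its values were seen, had 196, 238 and 202 CPM in control and 104, 106 and 120.5 CPM in Dnmt1Δ/Δep libraries, which do not overlap. Its log2 fold change of -0.94 (SE 0.11, adjusted p = 0.0034, edgeR) stayed short of the fold limit, and its adjusted p was at most 0.022 with 1 library left out. In the other direction Dusp6, which encodes a phosphatase induced by FGF signals and was likewise named after its values were seen, had a log2 fold change of 0.87 (SE 0.21, adjusted p = 0.045, edgeR), with an adjusted p under 0.05 only without control replicate 1 and up to 0.15 without any other library. The groups did not overlap in 6 genes of the list upward (beside 18.2% of all genes tested) and 2 downward (beside 11.7%). The call of Fgfr3 stood only without control replicate 1 among the fits with 1 library left out, where the adjusted p ranged from 0.0036 to 0.17. In the list, 4 genes were called without control replicate 1, 2 without Dnmt1Δ/Δep replicate 3 and 0 without control replicate 2, control replicate 3, Dnmt1Δ/Δep replicate 1 or Dnmt1Δ/Δep replicate 2. With the replicate number as a block 2 were called, and DESeq2 called 3.

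Around Chdh, a list held 21 genes of enzymes and carriers of choline and betaine. Of these 16 were tested, 2 were called higher (beside 6.03% of all genes tested) and 0 lower (beside 0.392%; 0 at an unadjusted p with the same fold), and the median log2 fold change was 0.14. Bhmt, whose enzyme passes the methyl group of betaine to homocysteine, had 0 counts in all libraries, and its relative Bhmt2 had at most 0.0116 CPM. The groups did not overlap in 7 of the 16, upward in 4 (beside 18.2% of all genes tested) and downward in 3 (beside 11.7%). Both genes called encode proteins of the choline transporter-like family at low levels. Slc44a4 had 0.148, 0.123 and 0.0372 CPM in control and 1.04, 0.786 and 0.822 CPM in Dnmt1Δ/Δep libraries (log2 fold change 3.01, SE 0.46, adjusted p = 0.0083, edgeR), and Slc44a3 had 0.434, 0.503 and 0.670 CPM in control and 1.49, 1.74 and 1 CPM in Dnmt1Δ/Δep libraries (log2 fold change 1.40, SE 0.32, adjusted p = 0.038, edgeR). Slc44a3 was not called without control replicate 1, 2 or 3 or Dnmt1Δ/Δep replicate 1 or 2, which left 1 gene called, and with a mean of at least 1 RPKM required 0 were called. Slc44a1, a choline transporter gene named after its values were seen, was higher at the adjusted p but not by the fold limit (log2 fold change 0.37, SE 0.09, adjusted p = 0.040, edgeR), and its adjusted p was between 0.051 and 0.17 with any 1 library left out. Aldh7a1, whose enzyme carries out the step after CHDH and which was named for that role after the values were seen, had 83.9, 75.4 and 73.3 CPM in control and 64.5, 65.5 and 64.9 CPM in Dnmt1Δ/Δep libraries (log2 fold change -0.26, SE 0.09, adjusted p = 0.14, edgeR).

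The methionine cycle, which remakes the methyl donor that DNMT1 uses, held 12 genes, of which 11 were tested and 0 were called by edgeR, at an unadjusted p with the same fold or by DESeq2. Its median log2 fold change was -0.15. Mat2b, which encodes a subunit of the enzyme that makes S-adenosylmethionine and was named after its values were seen, was lower at the adjusted p without the fold limit and without overlap between the groups (log2 fold change -0.42, SE 0.09, adjusted p = 0.024, edgeR). Its adjusted p was under 0.05 only without control replicate 1 among the fits with 1 library left out, and reached 0.10 in the others. Ahcyl1, a relative of the hydrolase of S-adenosylhomocysteine and the most abundant of them, had 259, 235 and 239 CPM in control and 245, 254 and 247 CPM in Dnmt1Δ/Δep libraries (log2 fold change 0.02, SE 0.09, adjusted p = 0.93, edgeR).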

How the data were processed

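Poly(A)-selected RNA of keratinocytes from 3 control and 3 Dnmt1Δ/Δep mice was sequenced, and groups and replicate numbers came from the labels. After alignment with STAR, the authors used htseq-count (union model) on uniquely mapped reads, and the gene table was deposited as raw counts. The submitters' processing notes name GRCm38, whereas the study's text names a human build for this alignment and RefSeq genes for a table that lists Ensembl genes. Entries that name no gene held 8.73% to 12.9% of the reads and were left out. A table of repeats and the authors' tables of comparisons (fold changes, p-values and normalized counts), with 18 per-library columns in all, were not used.

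Genes passing filterByExpr (minimum counts of 10 and 15) were compared by the quasi-likelihood test of edgeR on TMM-normalized libraries (factors 0.980 to 1.02), with Benjamini-Hochberg adjustment over 16829 genes and without a block. The study's methods mention both edgeR and DESeq2, and no block. The SE is the size of the log2 fold change divided by the root of its F statistic. The fit was also run on simulated data, and the outcome of that run is not given here. Alternatives were DESeq2 size factors, DESeq2's Wald test, no filter, a minimum mean of 1 RPKM in 1 of the groups, the replicate number as a block, and each of the 6 libraries left out. Replicate numbers pair the libraries: each number has its own lane of 3 in the table headers, and deviations from the group means correlated across genes at 0.46, 0.36 and 0.30 for numbers 1, 2 and 3.

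The members and lists were chosen with earlier results of these data known. Named genes are the 6 members, the genes called in each list (at most 4 per direction by size of change, or the most abundant gene where none was called), the nearest tested neighbours and any called within 500 kb, and the 5 genes most like Il17rb and Chdh. Other genes were named after their values were seen, for their role (Il25, Traf3ip2, Aldh7a1, Bhmt, Bhmt2), as markers, to complete a count, or because they passed the adjusted p without the fold limit or came near it (Il17c, Nfkbia, Ikbke, Nfkbiz, Fgfr2, Dusp6, Slc44a1, Mat2b). List symbols were matched by name or RefSeq synonym, and only Trdc found no match. The tools were edgeR 4.0.16, limma 3.58.1 and DESeq2 1.42.0 in R 4.3.3, and pandas 2.3.3 and matplotlib 3.10.9 in Python 3.11.15. Promoter windows came from RefSeq on GRCm38.p6, and exon lengths from GENCODE M21.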

Additional observations from a re-analysis of the deposited data

How the results depend on the processing

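The log2 fold changes of the 6 genes moved by less than the spread between replicates in every alternative that could be fitted, and Il17rb had none under a mean of at least 1 RPKM, since it was then not tested. With that minimum, 1 of the 6 genes, 0 FGF list genes, 0 choline list genes, 35 genes lower and 395 higher were called. The number of all genes called lower was 116 with DESeq2's Wald test and 107 without a filter, and each of these called 3 genes of the FGF list. With the replicate block, 95 genes were called lower and 1173 higher, 14 of the IL-17 target genes and 2 of the FGF list. The counts of the other 5 pathway lists did not change, whereas those of the hair follicle, melanocyte, myeloid and endothelial markers did. With 1 library left out, genes called lower ranged from 15 to 180 and higher from 559 to 1183. Over the same fits, called genes ranged from 1 to 2 among the 6, 0 to 1 among ligands, 1 to 3 among signal genes, 6 to 13 among target genes, 0 to 1 among type 2 genes, 0 to 4 in the FGF list and 1 to 2 in the choline list. The causes were not tested. Counting limits Il17rb most, with 5 to 25 reads in each Dnmt1Δ/Δep library. With 3 libraries per group an exact permutation test of 1 gene cannot reach the threshold, so calls rest on the spread shared across genes.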
